A study of Mus musculus with 9 samples.

Results

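The first daily step of mouse orofacial development covered here runs from gestation day 12 (GD12) to gestation day 13 (GD13). It was measured as the difference between the 3 arrays titled for GD13 and the 3 titled for GD12, which are 6 of the 9 arrays of the series. The other 3 arrays are of gestation day 14 (GD14). They entered the fit for its estimate of spread, and their levels are given beside those of GD12 and GD13. Every sample was total RNA of embryonic orofacial tissue, the tissue from which face, jaws and palate form, with no treatment or genetic change named. The labels give no strain, litter or pooling, so p-values measure only the spread between these samples, which may be technical. A level is a deposited intensity, in units scaled by the authors, and a difference is GD13 minus GD12 in log2(intensity + 3). A fold is computed from that difference, which understates the change of dim genes.

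On these days the palatal shelves grow beside the tongue, and condensations of facial mesenchyme become bone and cartilage. Osteoblasts lay down a collagen matrix and mineralize it, osteoclasts resorb it, and the oral ectoderm becomes a layered epithelium under a flat periderm. Primitive red cells from the yolk sac carry embryonic globins and are replaced over these days by definitive red cells from the liver. The comparison asks which genes and functions change over this day.

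Between GD12 and GD13 the bone gene Ibsp, the matrix proteoglycan Dcn, the proteases Ctsk and Mmp9 and the epithelial keratins Krt17 and Krt6a were among the genes that rose, while the embryonic globin Hba-x and the progenitor factor Sox11 fell. In limma, 60 of 9326 probe sets passed at a Benjamini-Hochberg adjusted p under 0.05 (0.643%), of which 53 rose (0.568%) and 7 fell (0.0751%). The risers stood for 44 named genes, the fallers for 7, and 2 risers had no gene name in the array's annotation. Of the 60, 55 changed at least 2-fold. The highest rise was that of Ibsp and the deepest fall that of Hba-x. The median difference over all 9326 was 0.025. Another 224 probe sets differed at least 2-fold without passing, 137 of them higher and 87 lower. At an unadjusted p under 0.05 there were 600 higher and 423 lower probe sets.

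**Figure D1:**
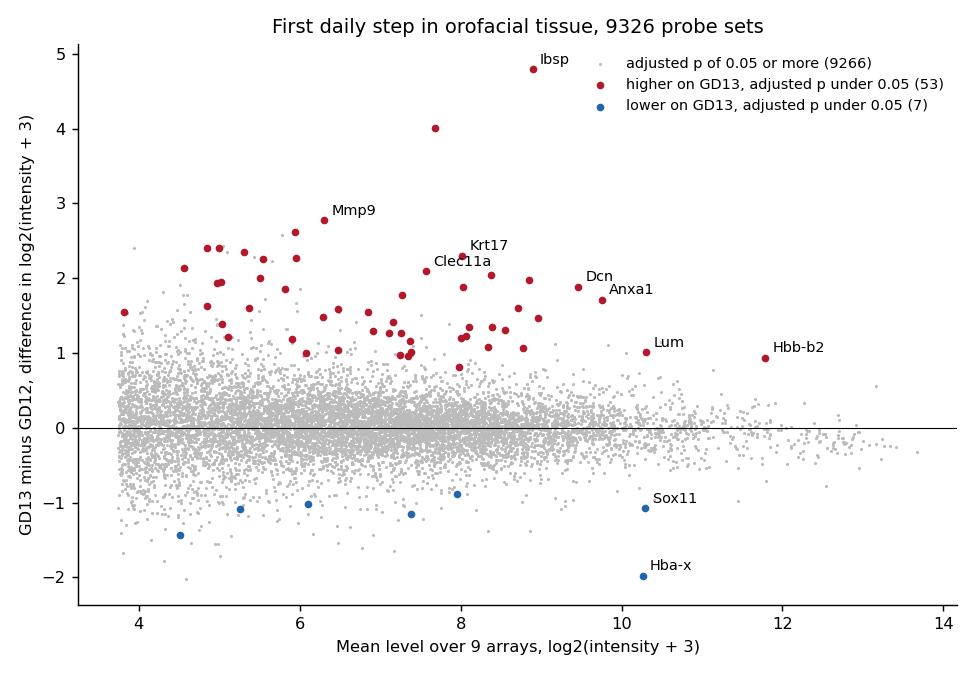
Difference between GD13 and GD12 (vertical, log2) against the mean level over the 9 arrays (horizontal, log2 of intensity + 3), 1 point per tested probe set. The 53 probe sets in red rose and the 7 in blue fell, and Ibsp and a probe set without a gene name lie farthest above the other points.

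The facial origin of the samples could be read from their transcription factors. On GD12, Twist1, a factor of cranial mesenchyme, was at 1560 ± 210, Msx1 at 1150 ± 209 and the oral mesenchyme factor Lhx8 at 820 ± 80.0 (SD, n = 3 each). Array medians of the 6 arrays lay between 47.15 and 55.15, and arrays of a day correlated with 0.943 to 0.966 across probe sets, which are not independent. RNA quality was read from the actin control probes, as signal at the 3' end over signal at the 5' end. This ratio was 1.54, 1.76 and 1.42 for GD12 and 2.09, 2.23 and 1.25 for GD13 (exact two-sided permutation test, p = 0.5, where 0.1 is the smallest 3 against 3 arrays allow). The third array was the lowest of each day. On the other arrays the actin ratio was higher on GD13 without overlap, so that RNA quality by this ratio and day cannot be told apart there. The same ratio of the Gapdh control probes was 1.09, 1.11 and 0.833 for GD12 and 1.13, 1.11 and 0.802 for GD13. Its mean was 1.01 on both days. With the actin ratio as a covariate 74 probe sets passed, 53 of them among the 60. Without the third array of every day 10 passed, 8 of them among the 60. All 60 differences kept their direction there, and their median size was 1.41, against 1.47 with all arrays.

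The count of 60 also moved with single arrays. Leaving out GD12 replicate 1 gave 26 calls, GD12 replicate 2 gave 37, GD13 replicate 1 gave 17, GD13 replicate 2 gave 31 and GD14 replicate 1 gave 37. Of the 60 calls, 16 held whichever of the 9 arrays was left out. These were Ibsp, Krt17, Aldh1a1, Clec11a, Ccl9, Krt6a, Dcn, Ptgfr, Ramp1, Ctsk, Anxa1, S100a6, Cyp2f2, Rpl39l and Hba-x, each on 1 probe set, and a probe set without a gene name. Among them Ccl9 was dim on GD12 and was tested only through its higher GD13 and GD14 arrays. The other 44 ended without at least 1 array, with highest adjusted p between 0.0519 and 0.202. In a fit with the array number as a replicate block 69 passed and 50 of the 60 calls held.

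**Figure D2:**
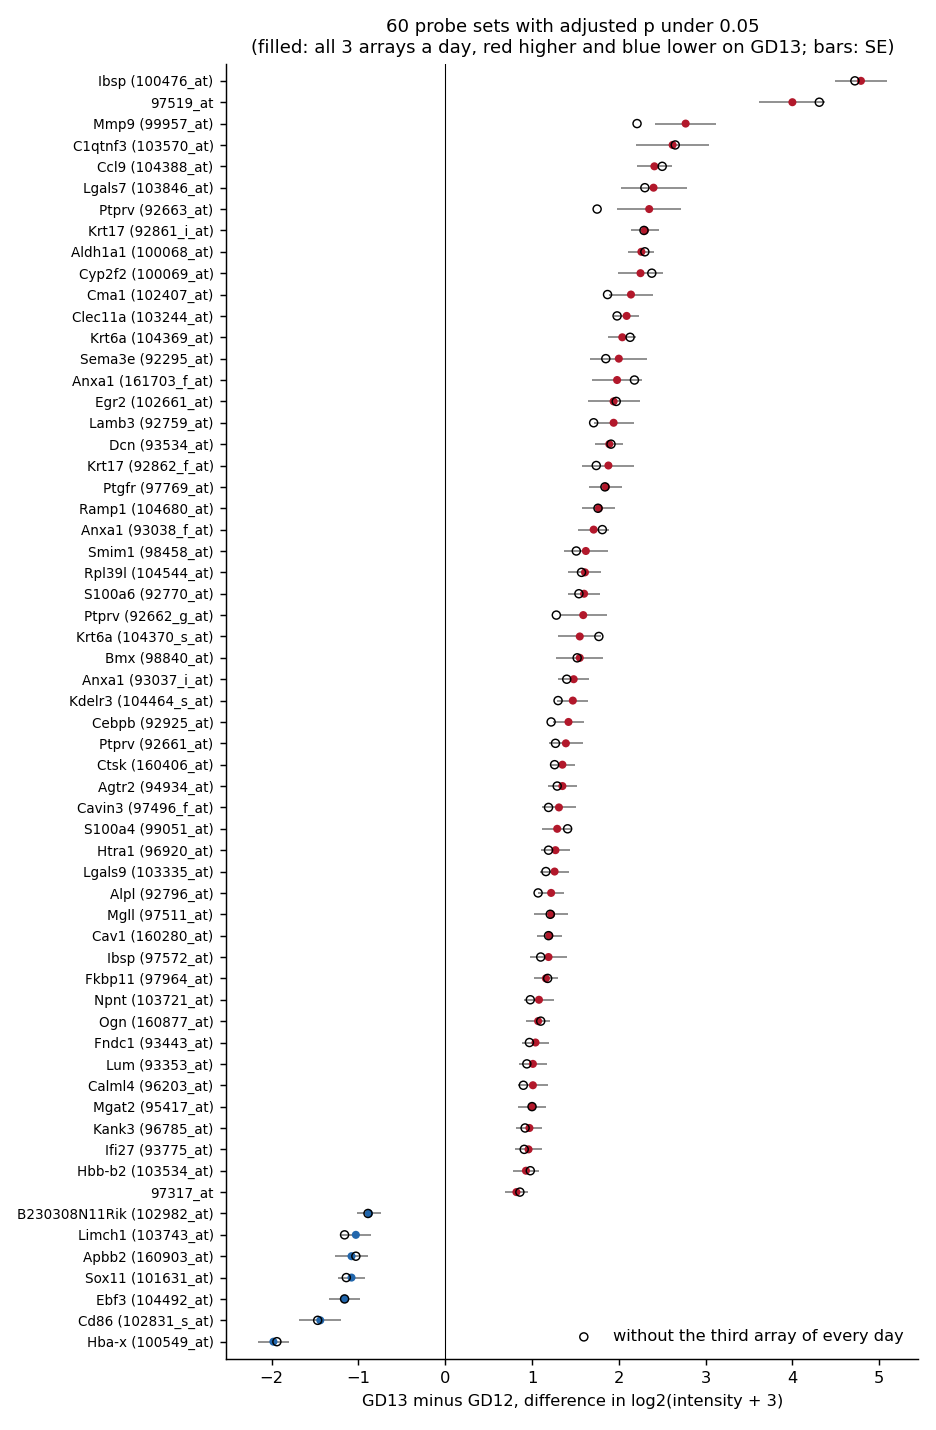
Differences of the 60 probe sets that passed (horizontal, log2, filled points with the SE of the fit), listed by size with the probe set in brackets. Open circles give the same difference without the third array of every day, and all 60 lie on the same side of 0 as the filled point.

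The promoters of the gene with the largest rise, Ibsp, and of the gene with the largest fall, Hba-x, are shown to make the opposite ends of the comparison visible. Each line gives the 150 bases before the RefSeq start on GRCm38.p6, 5′ to 3′ along the gene's strand. They lie at chr5:104299137-104299286 (+ strand, Ibsp) and chr11:32276450-32276599 (+ strand, Hba-x). Capitals mark exact matches on either strand to 1 of 6 motifs. The TATA box was searched as TATAAA, and the CAAT box by the letters CCAAT. The motif of the erythroid GATA factors was searched as AGATAA, and that of the osteoblast factor family RUNX as TGTGGT. The AP-1 motif was searched as TGAGTCA, and the box bound by Klf1 and its relatives, known as the CACCC box, as CCACCC.
Ibsp: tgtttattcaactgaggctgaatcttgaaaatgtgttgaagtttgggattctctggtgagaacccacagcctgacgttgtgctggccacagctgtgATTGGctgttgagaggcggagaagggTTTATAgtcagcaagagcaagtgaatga
Hba-x: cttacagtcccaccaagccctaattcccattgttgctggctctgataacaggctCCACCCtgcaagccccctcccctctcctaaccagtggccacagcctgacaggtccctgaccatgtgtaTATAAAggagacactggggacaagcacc

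In the Ibsp stretch the TATA and CCAAT letters stood on the opposite strand, with their first printed bases 28 and 54 bases before the start. In the Hba-x stretch a TATA match began 28 and a CACCC match 96 bases before the start. None of these matches overlapped another. Of 32851 RefSeq promoter windows of the same length, 7.57% held the TATA letters, 24.5% CCAAT, 19.7% CACCC, 5.65% GATA, 8.4% RUNX and 2.84% AP-1. These are letter matches and no measured sites.

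The largest rise was in a bone gene. Ibsp, which encodes bone sialoprotein of mineralizing matrix, had intensities of 50.3, 44.3 and 26.5 for GD12 and 1353, 1287 and 898 for GD13. The days were far apart, with the lowest array of GD13 above every array of GD12. Ibsp rose 27.7-fold (log2 4.79, SE 0.30, adjusted p = 0.000402), and its mean was 2270 ± 619 on GD14 (SD, n = 3). A dimmer Ibsp probe set rose as well, from 31.3 ± 2.48 to 75.6 ± 11.2 (SD, n = 3 each, adjusted p = 0.0469), but not without GD13 replicate 2 (adjusted p = 0.195). In these bulk samples more cells of a type and more RNA per cell cannot be told apart.

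Alpl, the alkaline phosphatase that frees phosphate for mineral, had 121, 138 and 109 on GD12 and 271, 278 and 317 on GD13. It rose 2.33-fold (log2 1.22, SE 0.15, adjusted p = 0.00907). Ogn, the small proteoglycan osteoglycin, rose from 218 ± 11.6 to 460 ± 24.9 (SD, n = 3 each, adjusted p = 0.0125), while another Ogn probe set did not pass (log2 0.85, adjusted p = 0.184). Highest adjusted p without single arrays was 0.0522 for Alpl (without GD13 replicate 1) and 0.0794 for Ogn (without GD12 replicate 1). Ptprv, the osteotesticular protein tyrosine phosphatase of osteoblasts, rose on all 3 of its probe sets, by a log2 of 2.35, 1.59 and 1.39. The first of these did not pass with the replicate block (adjusted p = 0.0633), and each of the 3 calls depended on single arrays. Without GD13 replicate 2 the first had an adjusted p of 0.117, without GD12 replicate 2 the second one of 0.118, and without GD12 replicate 1 the last one of 0.0794.

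Among the 10 tested bone and osteoblast genes there were 3 rises and 0 falls, and 7 genes missed the threshold. For genes by their brightest probe set, 0.641% of 6868 rose and 0.0728% fell. These shares are the background for the counts of calls in every list below. The median difference of the list was 1.09, against 0.028 over all genes. For 8 of the 10 the lowest GD13 array lay above the highest GD12 array, which was so for 11.1% of all genes. The summed intensity of the list was 1958 to 2629 on GD12 and 5311 to 5630 on GD13. Among members that did not pass, Dmp1 of mineralized matrix had a log2 difference of 1.78 (adjusted p = 0.0784) and Col1a1 one of 0.78 (adjusted p = 0.166).

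Clec11a, a secreted growth factor of bone marrow and skeletal stroma, was among the 4 probe sets with the lowest adjusted p. It had 61.0, 68.6 and 57.7 on GD12 and 261, 266 and 302 on GD13, and rose 4.27-fold (log2 2.09, SE 0.14, adjusted p = 0.000402). C1qtnf3, a secreted C1q-like protein of cartilage and fat, had 6.60, 23.1 and 9.10 on GD12 and 93.4, 98.8 and 68.4 on GD13. Its GD12 arrays differed by more than 3 times among themselves, so its 6.14-fold rise is loosely fixed (log2 2.62, SE 0.42, adjusted p = 0.0323). Without GD13 replicate 2 the adjusted p of C1qtnf3 was 0.142. A probe set with no gene name in the annotation rose 16.0-fold, from 24.5, 11.3 and 15.7 to 413, 369.7 and 193 (adjusted p = 0.00263).

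Of 8 tested osteoclast genes 2 rose, Ctsk and Mmp9, and 0 fell (median 0.472), against 0.641% and 0.0728% of all genes. Ctsk, the cathepsin with which osteoclasts cut collagen, had 134, 145 and 127 on GD12 and 324, 351 and 372 on GD13. It rose 2.54-fold (log2 1.35, SE 0.14, adjusted p = 0.0048). Mmp9, a gelatinase of osteoclasts and other invading cells, had 16.3, 32.7 and 11.2 on GD12 and 109.8, 128 and 209 on GD13, a 6.84-fold rise (log2 2.77, SE 0.35, adjusted p = 0.00939). A dimmer Mmp9 probe set did not pass (log2 0.73, adjusted p = 0.469), and without GD12 replicate 1 the Mmp9 call ended (adjusted p = 0.0519). Acp5, the tartrate-resistant phosphatase of osteoclasts, had 26.4 ± 8.49 on GD12 and 68.8 ± 13.3 on GD13 (SD, n = 3 each) and did not pass (adjusted p = 0.0656). The other 5 osteoclast genes, with differences from -0.66 (Nfatc1) to 0.55 (Tnfrsf11a), did not pass either.

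Ccl9, a chemokine made by myeloid cells including osteoclasts, rose from 7.60, 5.60 and 6.0 to 44.3, 58.5 and 39.2 (adjusted p = 0.00114). Its GD12 mean lay under 10.4, the intensity of the filter on low values. It was thus tested only through its higher later days, and no fold is given. Among 16 matrix proteases and inhibitors Ctsk and Mmp9 were the 2 that rose, and 0 fell (median 0.237). The collagenase Mmp13 had 6.0 ± 4.39 and 43.7 ± 18.9 (SD, n = 3 each) and did not pass (adjusted p = 0.0765). Htra1, a secreted serine protease, rose 2.41-fold, from 68.5 ± 10 to 169 ± 9.06 (SD, n = 3 each), with an adjusted p of 0.0127 and of 0.0789 without GD12 replicate 1. Of 27 macrophage and leukocyte genes 0 passed (median 0.132). Their summed intensity was 1318 to 1380 on GD12 and 1517 to 1723 on GD13, and its part in the rises of Ctsk, Mmp9 and Ccl9 was not tested.

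Matrix genes of connective tissue passed the threshold in a small number. Dcn, the proteoglycan decorin that binds collagen fibrils, had 288, 219.8 and 233 on GD12 and 941, 959.7 and 845 on GD13. It rose 3.70-fold (log2 1.89, SE 0.16, adjusted p = 0.00114), with a mean of 1550 ± 104 on GD14 (SD, n = 3). Lum, the related proteoglycan lumican, rose 2.01-fold, from 761 ± 110 to 1520 ± 31.4 (SD, n = 3 each, adjusted p = 0.0286). Besides these and Ogn, 28 of the 31 tested interstitial matrix genes did not pass and 0 fell, and the list's median was 0.416. For 16 of the 31 every GD13 array lay above every GD12 array, and for 2 every one lay below. Over all genes these shares were 11.1% and 8.72%. The summed intensity of the list was 18018 to 21091 on GD12 and 24626 to 28002 on GD13. The elastic fibre gene Eln (log2 1.15, adjusted p = 0.0918) and the collagen-binding Fmod (1.14, adjusted p = 0.105) had the largest differences among those that did not pass. Without GD13 replicate 2 the adjusted p of Lum was 0.138.

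Other secreted or matrix-bound proteins that rose were Npnt, the integrin ligand nephronectin (166 ± 14.0 to 356 ± 51.2), and Fndc1, a fibronectin-domain protein (45.5 ± 3.21 to 97.2 ± 10.3; SD, n = 3 each). Kdelr3, Fkbp11 and Mgat2, taken from the calls and in no list, act in the endoplasmic reticulum or Golgi. Kdelr3, a receptor that returns chaperones to the endoplasmic reticulum, had 223, 272 and 169 on GD12 and 644, 576 and 599 on GD13 (2.77-fold, adjusted p = 0.00939). Fkbp11, a prolyl isomerase of the endoplasmic reticulum, rose from 77.6 ± 7.57 to 176 ± 9.92 (SD, n = 3 each, adjusted p = 0.00873), and Mgat2, a Golgi enzyme of N-glycan synthesis, from 42.5 ± 2.95 to 88.4 ± 7.62 (adjusted p = 0.0348, and 0.0588 with the replicate block). All 5 calls ended without single arrays. Highest adjusted p was 0.133 for Npnt, 0.0628 for Kdelr3 and 0.0577 for Fkbp11 (without GD13 replicate 1), and 0.133 for Fndc1 and 0.171 for Mgat2 (without GD13 replicate 2).

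Among epithelial genes the rises were those of a keratin pair, a galectin and a laminin chain. Krt17, a keratin of periderm and embryonic ectoderm, had 77.7, 90.3 and 93.3 on GD12 and 440.4, 402 and 479 on GD13. It rose 4.92-fold (log2 2.30, SE 0.16, adjusted p = 0.000402). Its mean on GD14 was 436 ± 47.5 (SD, n = 3). A second Krt17 probe set rose as well (log2 1.88, adjusted p = 0.0299, and 0.109 without GD12 replicate 1), while another did not pass (0.47, adjusted p = 0.753). Krt6a, which pairs with type I keratins such as Krt17, had 81.2, 105 and 111 on GD12 and 429, 402 and 411 on GD13 (4.11-fold, adjusted p = 0.00114). Its other probe set rose by a log2 of 1.55 (adjusted p = 0.034, and 0.157 without GD13 replicate 2). Krt6a went on to 862 ± 83.2 on GD14 (SD, n = 3).

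Lgals7, the galectin of stratified epithelia, was at 7.90, 5.40 and 5.10 on GD12 and 78.6, 24.4 and 46.2 on GD13 (adjusted p = 0.0299). Lamb3, a chain of the laminin that anchors hemidesmosomes, was at 6.90, 10.5 and 6.0 on GD12 and 37.2, 32.4 and 45.2 on GD13 (adjusted p = 0.00833). Their GD12 means lay under the filter on low values, so they were tested only through their higher later days and a fold has no base. Another Lamb3 probe set did not pass (log2 0.79, adjusted p = 0.277). The call of Lgals7 ended without GD12 replicate 2 (adjusted p = 0.0987) and that of Lamb3 without GD13 replicate 1 (adjusted p = 0.0522). Of 38 tested genes of oral epithelium and periderm 3 rose, 0 fell and 35 did not pass. The list's median was 0.47. On every GD13 array 16 of the 38 genes were higher than on any GD12 array, which was so for 11.1% of all genes. Of the 38 differences 35 were above 0. The largest among those that did not pass were Krt19 at 1.86 (adjusted p = 0.131) and Lgals3 at 1.78 (adjusted p = 0.0769). Epcam, a general epithelial adhesion molecule, had a log2 difference of 0.95 (adjusted p = 0.0518). Near 0 were Cdh1, E-cadherin, at 0.07 and Trp63, the master factor of stratified epithelia, at -0.07. Lamb3 was the single riser among 17 basement membrane genes (median -0.07), and 0 fell.

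Several membrane and calcium-binding proteins rose. Anxa1, annexin A1, which binds phospholipids and limits inflammation, rose on all 3 of its probe sets. The brightest had 368, 395 and 335 on GD12 and 1391, 1306 and 957 on GD13 (3.27-fold, log2 1.71, SE 0.18, adjusted p = 0.00488). The others rose by 1.98 (adjusted p = 0.0229) and 1.48 (adjusted p = 0.00892), with adjusted p of 0.0829 without GD12 replicate 2 and 0.0522 without GD13 replicate 1. S100a6, a small calcium-binding protein, rose from 163 ± 21.4 to 498 ± 31.5 (adjusted p = 0.00676), and its relative S100a4 from 59.3 ± 10.4 to 148 ± 3.80 (SD, n = 3 each, adjusted p = 0.0133). Cav1, the main protein of caveolae, had 120.4, 113 and 113 on GD12 and 264, 275 and 268 on GD13 (2.30-fold, adjusted p = 0.00703), although a dim Cav1 probe set did not pass (log2 0.35, adjusted p = 0.699). Cavin3, a caveolar coat protein, rose from 182 ± 16.5 to 459 ± 82.7 (SD, n = 3 each, adjusted p = 0.0279). Calls ended without single arrays for S100a4 (0.0743, without GD13 replicate 2), Cav1 (0.0522, without GD13 replicate 1) and Cavin3 (0.114, without GD13 replicate 1).

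**Figure D3:**
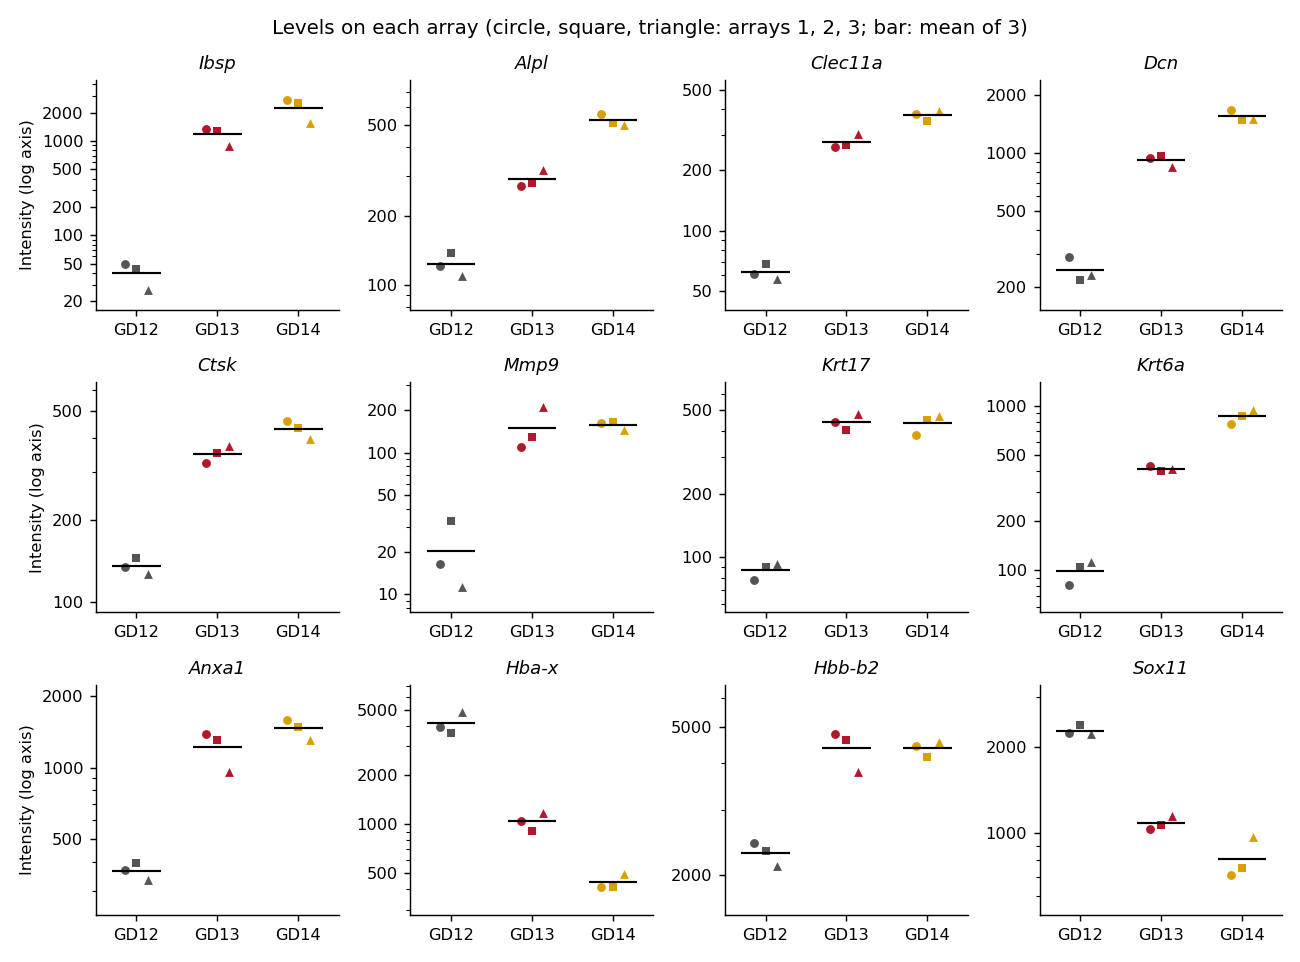
Intensity on each array (vertical, log axis) of 12 probe sets by day; the symbol gives the array number and the bar the mean of 3. For 10 of the 12 all GD13 arrays lie above all GD12 arrays, and for Hba-x and Sox11 all lie below.

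Among the calls were 3 receptor genes or receptor partners, taken from the calls and in no list. Ramp1, which makes the calcitonin-like receptor respond to the neuropeptide CGRP, had 50.9, 54.6 and 62.5 on GD12 and 156, 222 and 223 on GD13 (3.42-fold, adjusted p = 0.0048). Ptgfr, the receptor of prostaglandin F, had 21.2, 17.9 and 22.8 on GD12 and 68.1, 88.5 and 91.9 on GD13 (3.62-fold, adjusted p = 0.0048). A dim probe set of Ptgfr did not pass (log2 0.96, adjusted p = 0.248). Agtr2, the type 2 angiotensin receptor of fetal mesenchyme, rose from 154 ± 27.6 to 391 ± 20.8 (SD, n = 3 each, adjusted p = 0.00895, and 0.0583 without GD13 replicate 1). The GD12 and GD13 arrays of these 3 did not overlap, which was so for all 60 calls and for 18.5% of all tested probe sets.

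In retinoid metabolism Aldh1a1, a retinaldehyde dehydrogenase that makes retinoic acid, was the single riser among 18 tested genes, and 0 fell (median 0.132). It had 11.3, 14.0 and 12.0 on GD12 and 75.6, 72.2 and 65.5 on GD13, and rose 4.81-fold (log2 2.26, SE 0.15, adjusted p = 0.000402). Its dimmer probe set did not pass (log2 0.42, adjusted p = 0.725). The related Aldh1a2 had a log2 difference of -0.43 (adjusted p = 0.336), and the carrier Rbp4 one of 1.56 (adjusted p = 0.184). Cyp2f2, a cytochrome P450, had 10.1, 9.50 and 15 on GD12 and 59.1, 68.1 and 69.6 on GD13 (4.77-fold, adjusted p = 0.00703).

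Transcription factors that rose were Cebpb and Egr2. Cebpb, a factor of fat, bone and epithelial differentiation, had 71.0, 60 and 58.6 on GD12 and 158, 154 and 213 on GD13 (2.67-fold, adjusted p = 0.011, and 0.0522 without GD13 replicate 1). Egr2, an immediate early factor that also drives Schwann cell myelination, had 15.2, 6.60 and 17.0 on GD12 and 45.3, 52.9 and 70.2 on GD13 (adjusted p = 0.0299). The Egr2 call was lost with the replicate block (adjusted p = 0.0581) and without GD13 replicate 2 (adjusted p = 0.117). It was the single riser among 29 immediate early and stress genes (median 0.218) and among 12 Schwann cell and glial genes (median 0.125). The summed intensity of the glial list was 1140 to 1625 on GD12 and 930 to 1327 on GD13.

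Among guidance molecules Sema3e, a semaphorin that steers vessels and axons, rose from 27.9, 10.8 and 9.70 to 64.0, 80.2 and 59.5 (adjusted p = 0.0357). Its adjusted p was 0.0662 with the replicate block and 0.163 without GD13 replicate 2. The other 34 tested genes of axon guidance did not pass (median -0.164). The mast cell chymase Cma1 rose from 4.23 ± 2.84 to 27.3 ± 0.954 (SD, n = 3 each, adjusted p = 0.0083, and 0.0522 without GD13 replicate 1). On GD12 this probe set was below the filter on low values, so it was tested only through its higher later days and has no fold here. Its 2 other probe sets were too dim to be tested, and the other 6 tested mast cell genes did not pass. Their log2 differences were -1.22 for Mcpt1, -0.49 for Kit, -0.33 for Gata2, -0.05 for Cpa3, 0.00 for Tpsb2 and 0.27 for Hdc, and Mcpt1 and Kit were lower on every GD13 array.

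The remaining named risers, with differences of 0.93 to 1.62, were Rpl39l, Smim1, Bmx, Lgals9, Mgll, Calml4, Kank3, Ifi27 and Hbb-b2. Rpl39l, a relative of the ribosomal protein gene Rpl39, had 13.6, 19.2 and 16.0 on GD12 and 52.4, 55.9 and 57.6 on GD13 (adjusted p = 0.00703). It was the single riser among 28 genes matched as cytosolic ribosomal proteins, whose median was -0.096. Lgals9, a galectin of immune cells and epithelia, rose from 69.1 ± 11.7 to 169 ± 19 (SD, n = 3 each, adjusted p = 0.0142). A second probe set did not pass for Mgll (log2 0.68, adjusted p = 0.52) and Kank3 (1.05, adjusted p = 0.458). The GD12 mean of Bmx, 4.10, lay under the filter intensity, so Bmx was tested only through its higher later days. The lipase Mgll, the kinase Bmx and Calml4 lost their call with the replicate block (adjusted p = 0.0662, 0.0532 and 0.0532). Apart from that of Rpl39l, each of these calls ended without single arrays. Highest adjusted p was 0.133 for Smim1, 0.195 for Bmx, 0.0794 for Lgals9, 0.137 for Mgll, 0.142 for Kank3, 0.161 for Ifi27 and 0.171 for Hbb-b2 (without GD13 replicate 2), and 0.196 for Calml4 (without GD13 replicate 1).

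Among red cell genes 1 embryonic globin fell and 1 adult-type globin rose. Hba-x, the embryonic zeta globin of primitive red cells, had 3903, 3611 and 4831 on GD12 and 1049.7, 903 and 1162 on GD13. It fell 3.95-fold (log2 -1.98, SE 0.18, adjusted p = 0.0018) and had a mean of 440 ± 47.2 on GD14 (SD, n = 3). Hbb-b2, an adult-type beta globin, had 2443, 2319 and 2117 on GD12 and 4799.6, 4622 and 3784 on GD13. It rose 1.91-fold (log2 0.93, SE 0.15, adjusted p = 0.0348, and 0.171 without GD13 replicate 2).

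The other embryonic globins did not pass. The brighter Hbb-y probe set had 9897, 9326 and 12412 on GD12 and 6678, 5659.7 and 5975 on GD13 (adjusted p = 0.0919), its dimmer one had a log2 difference of -0.98 (adjusted p = 0.0713), and Hbb-bh1 had -1.04 (adjusted p = 0.353). In all 3 embryonic globin genes every GD13 array lay below every GD12 array, which was so for 8.72% of all genes. Globin genes are near-identical copies of each other in part, so their probe sets may share signal. Of 21 other erythroid genes Hbb-b2 rose, 0 fell and the median was -0.034. Their differences ran from -1.27 to 0.93. For 4 of the 21 every GD13 array was higher and for 3 every one was lower, against 11.1% and 8.72% of all genes. Alas2 had a log2 difference of 0.86 (adjusted p = 0.286), Fech one of 0.44 (adjusted p = 0.375) and Mllt3 one of -0.60 (adjusted p = 0.125). Hba-a1, an adult-type alpha globin, had a log2 difference of 0.04, and the erythroid factor Gata1 one of -0.25.

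The 7 falls stood beside 53 rises, a split that varied with the settings. It was 136 rises to 65 falls with array weights, 92 to 23 with trend and robust variances, 74 to 20 with the filter at the median, 55 to 14 with the replicate block and 7 to 3 without the third arrays. With median scaling it was 37 to 5 and with quantile normalization 50 to 7. Without single arrays rises were 76.1% (without GD13 replicate 3) to 96.8% (without GD13 replicate 2) of the calls, against 88.3% in the main fit. Sox11, a factor of embryonic neural and mesenchymal progenitors, had 2239, 2397 and 2215 on GD12 and 1033, 1065 and 1149.8 on GD13. It fell 2.11-fold (log2 -1.08, SE 0.16, adjusted p = 0.0256), and a dimmer Sox11 probe set had the same difference of -1.08 without passing (adjusted p = 0.0784), but passed with the replicate block (adjusted p = 0.0427). Ebf3, a factor of neurons and mesenchyme, had 309, 255 and 345 on GD12 and 129.8, 118 and 155 on GD13 (2.23-fold lower, adjusted p = 0.0286). Another Ebf3 probe set did not pass (log2 -0.78, adjusted p = 0.195). Sox11 missed the threshold without GD13 replicate 1 (adjusted p = 0.123) and Ebf3 without GD13 replicate 2 (adjusted p = 0.141).

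Limch1, an activator of non-muscle myosin, fell from 108 ± 3.61 to 52.2 ± 9.27 (adjusted p = 0.0372), and Apbb2, which binds the amyloid precursor protein, from 54.2 ± 7.84 to 23.9 ± 1.42 (SD, n = 3 each, adjusted p = 0.0485). The leukocyte co-stimulator Cd86 fell from 31.4 ± 4.42 to 9.73 ± 1.71 (adjusted p = 0.0357), and B230308N11Rik from 352 ± 15.7 to 189 ± 7.82 (SD, n = 3 each, adjusted p = 0.0286). The GD13 mean of Cd86 lay under 10.4, the filter intensity, so Cd86 was tested only through its GD12 and GD14 levels. Its mean on GD14 was 25.3 ± 7.87 (SD, n = 3). Its other probe set was too dim to be tested. A brighter Limch1 probe set did not pass (284 and 141, adjusted p = 0.184). With the replicate block Limch1, Apbb2 and Cd86 did not pass (adjusted p = 0.0575, 0.0617 and 0.0662). All 4 calls ended without single arrays. Highest adjusted p was 0.165 for Limch1 (without GD13 replicate 1) and 0.202 for Apbb2, 0.168 for Cd86 and 0.142 for B230308N11Rik (without GD13 replicate 2).

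Sox11 was the single faller among 47 craniofacial transcription factors, and 0 rose (median -0.109). Msx1, a homeobox factor of palate and tooth mesenchyme, had 1119.8, 1366 and 949.5 on GD12 and 678, 685 and 701 on GD13. These arrays did not overlap, but the difference of -0.72 did not pass (adjusted p = 0.126). Tbx3, a T-box factor, had 51.9 ± 9.54 and 24.4 ± 4.07 (SD, n = 3 each, adjusted p = 0.0964). Twist1 (log2 -0.29), Pax9 (-0.45), Lhx8 (-0.07) and Dlx5 (0.38) did not pass either, with adjusted p between 0.403 and 0.93. Hmga2, a chromatin protein of embryonic growth, had 1245, 924 and 1184 on GD12 and 406, 302 and 621 on GD13. Its difference of -1.38 did not pass (adjusted p = 0.094) and passed with the replicate block (adjusted p = 0.0329).

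Lists of proliferation and chromatin genes had medians a little below 0 and no gene past the threshold. Of 87 cell cycle and replication genes 0 passed, and their median was -0.2. For 25 of the 87 every GD13 array lay below every GD12 array, which was so for 8.72% of all genes. Examples were Ncaph, a condensin subunit (123 ± 9.09 and 78.8 ± 4.69, with a dimmer probe set at a difference of 0.20), and Tacc3, a spindle protein (74.9 ± 7.03 and 37.0 ± 11.5; SD, n = 3 each). Of 51 chromatin modifiers and remodellers 0 passed, with a median of -0.205. For 22 of the 51 every GD13 array was lower, against the same 8.72% of all genes. Jarid2, a partner of the Polycomb complex, had 384 ± 42.9 and 223 ± 19.2 (SD, n = 3 each, adjusted p = 0.125). Cbx5, heterochromatin protein 1 alpha, had a difference of -0.16 on its brighter probe set (adjusted p = 0.801) and of -0.88 on its dimmer one (adjusted p = 0.0765). Of 45 splicing factors 0 passed (median -0.138).

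**Figure D4:**
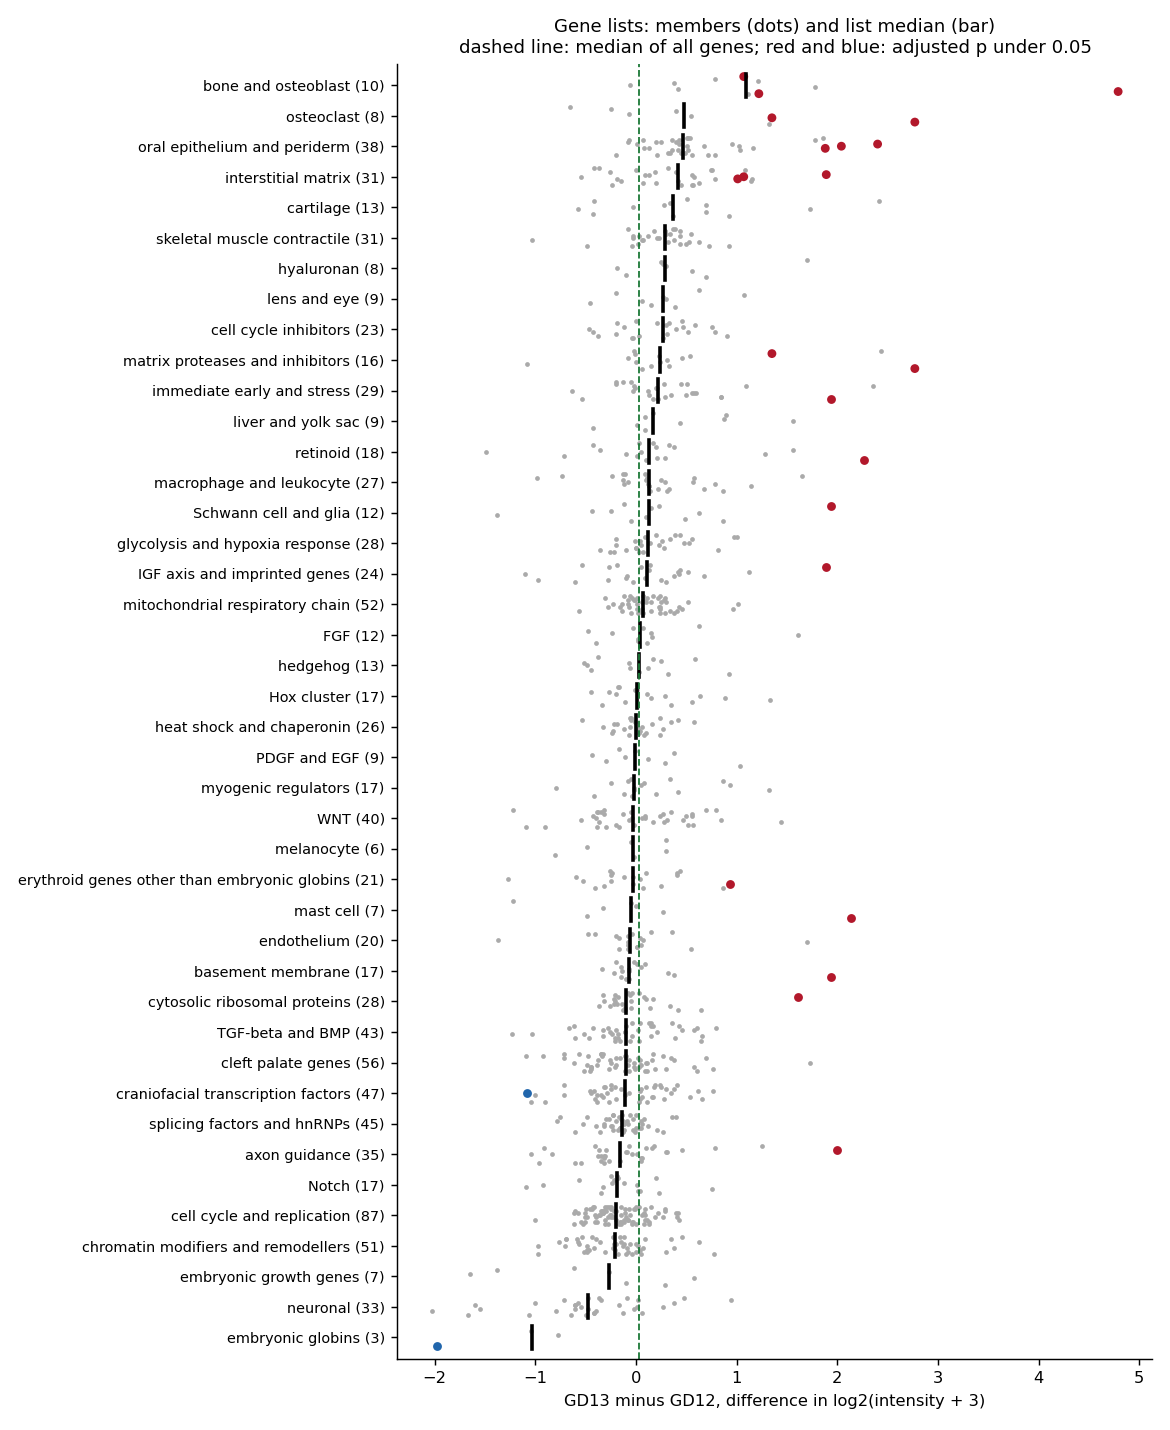
Differences between GD13 and GD12 (horizontal, log2) of the tested genes of 42 lists, ordered by list median, with the number of tested genes in brackets. The bone list has the highest median, 1.09, and the embryonic globins the lowest, -1.04, while the dashed line marks 0.028, the median of all 6868 genes.

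Neuronal genes had a median of -0.481 over 33 genes, of which 0 passed. Mapt, the axonal protein tau, had 322, 329 and 121 on GD12 and 90.8, 73.7 and 63.7 on GD13 (adjusted p = 0.125), and Neurod1, a neurogenic factor, 29.3, 39.9 and 15.1 against 8.20, 3.0 and 8.60 (adjusted p = 0.125). Other Mapt probe sets had differences of -0.88 and -0.51. The third GD12 array was the lowest of its day for both genes. The summed intensity of the list was 7790, 7598 and 4716 for GD12 and 5134, 5180 and 3508 for GD13, so that the days overlapped and the third array was the lowest of each. The part of neural tissue in the falls of Sox11 and Ebf3 was not tested.

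In 5 signalling pathway lists no gene passed. None of 43 TGF-beta and BMP, 40 WNT, 12 FGF, 13 hedgehog or 17 Notch genes did, with medians of -0.098, -0.032, 0.043, 0.025 and -0.185. Tgfb3, the isoform needed for palatal fusion, had 312, 352 and 286 on GD12 and 461, 460.3 and 499 on GD13. All its GD13 arrays were higher, but the difference of 0.58 (SE 0.14) did not pass (adjusted p = 0.15). Ihh, the hedgehog signal of growth plates, had 26.0 ± 5.35 and 51.3 ± 2.05 (SD, n = 3 each, adjusted p = 0.0543). Tgfb2 (log2 -0.62), Shh (-0.52), Bmp4 (-0.26) and Fgfr2 (0.11) did not pass. Igfbp3, a carrier of insulin-like growth factors, had 334 ± 26.5 and 732 ± 101 (SD, n = 3 each, adjusted p = 0.0543), and 0.64 on another probe set (log2, adjusted p = 0.69). Of 56 genes whose loss causes cleft palate 0 passed (median -0.103).

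Cartilage and muscle had no gene past the threshold between GD12 and GD13. For 13 cartilage genes the median was 0.372, and 9 of the 13 differences were above 0. The largest were those of Matn1 at 2.41 (adjusted p = 0.195) and Col11a2 at 1.73 (adjusted p = 0.192). For 6 of the 13 every GD13 array lay above every GD12 array, which was so for 11.1% of all genes. The 2 that were lower on every GD13 array, against 8.72% of all genes, were Sox6 at -0.58 (adjusted p = 0.179) and Col9a1 at -0.43 (adjusted p = 0.506). For 31 contractile genes of skeletal muscle the median was 0.291. Acta1, skeletal muscle actin, had 70.9, 106 and 66.9 on GD12 and 129, 128 and 217 on GD13 (adjusted p = 0.255). On GD14 its mean was 656 ± 148 (SD, n = 3).

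The second daily step, GD14 minus GD13, had 4 calls (0.0429%), against 60 for the first. They were rises of Aldh1a1, Col1a1 and Fmod and a fall of Hbb-y. The steps share the GD13 arrays. The test of the second step minus the first in limma gave 0 probe sets of 9326 (0%), with 453 at an unadjusted p under 0.05, so no gene was shown to differ between the steps. Krt17 had means of 87.1, 440 and 436 on the 3 days, and Ibsp of 40.4, 1180 and 2270. The second minus the first difference was -2.32 (SE 0.27, adjusted p = 0.135) for Krt17 and -3.87 (SE 0.52, adjusted p = 0.200) for Ibsp.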

How the data were processed

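Total RNA of mouse orofacial tissue was measured on one-colour Affymetrix arrays, 3 per gestation day. The deposited values are intensities, 1 per probe set, which the authors had scaled. After trimming 2% of probe sets at each end, all arrays had a mean intensity of 150.1. The image software and summary method are not given in the sources used here. The table held 12488 probe sets, of which 66 controls were left out. Of the other 12422, 10833 had 1 gene symbol in the platform annotation, 396 several and 1193 none. The number of arrays limits the precision.

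Intensities were used as log2(intensity + 3). Probe sets whose mean lay at or under the 25th percentile (an intensity of 10.4) were left out, which left 9326. For 6 of the 60 calls the GD12 or GD13 mean lay under 10.4, so these were tested only through their other days. The 9 arrays were fitted as 3 day means in limma 3.58.1 (R 4.3.3), and the contrasts were called at a Benjamini-Hochberg adjusted p under 0.05. The script was tested on simulated data. A gene in a list stands for its brightest tested probe set. Probe sets ending in _f_at, _s_at, _i_at or _r_at can take signal from related genes, globins and keratins included.

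The groups share array numbers in their titles. Residuals of same-numbered arrays of different days correlated with 0.189 to 0.419, those of other pairs with -0.287 to -0.017. The numbers were therefore taken as pairs in the replicate block, from the data and not from a stated litter or run. The main fit, its 60 calls and its adjusted p leave this pairing out. Genes were named by rule: the 15 largest rises and falls past the threshold with a mean of at least 50 on the higher day, every list member that passed, up to 3 members by smallest p in lists with few or no calls, the smallest p values up to 20 in a direction with fewer calls, and palate genes fixed by name. Other genes that passed were named after their values were seen. So were Dmp1, Col1a1, Eln, Fmod, Krt19, Lgals3, Epcam, Cdh1, Trp63, Matn1, Col11a2, Col9a1, Cpa3, Tpsb2, Hdc, Nfatc1, Hba-a1 and Gata1. The comparison and the 42 gene lists were chosen with earlier results of these data known. Alternatives covered scaling, the added value, the filter, the variance model, array weights, the replicate block, the actin ratio and left-out arrays.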

Additional observations from a re-analysis of the deposited data

How the results depend on the processing

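The count of 60 probe sets stayed within 1.5 times with arrays scaled to 1 median or quantile normalized, with 1 or 11 added before the logarithm, with the actin covariate and with the replicate block, at 42 to 74 calls. It moved to 35 with no filter, 94 with the filter at the median, 115 with trend and robust variances, 201 with array weights, 34 with only the GD12 and GD13 arrays and 10 without the third array of every day. Without single arrays it lay between 17 and 59. The fit with the array number as a replicate block, which pairs the arrays, called 69. Of the 1241 values of called probe sets under alternatives 844 kept their call, 397 lost it and 0 reversed. The second step minus the first had 0 calls in most settings, 2 with the filter at the median, 2 with trend and robust variances, 1 with array weights and 1 with the replicate block, and 0 to 0 without single arrays. Of the genes named by rule that did not pass, 4 changed sign, and sign changes among all other genes were not counted. Without single arrays these 4 lay between -0.13 and 0.27 (Fgfr2), -0.53 and 0.17 (Tgfb1), -0.16 and 0.05 (Lhx8) and -0.99 and 0.001 (Rax). Fgfr2 turned to -0.13 without GD13 replicate 3, Tgfb1 to 0.17 and 0.16 without GD12 replicate 1 and 2, Lhx8 to 0.01 and 0.05 without GD12 replicate 1 and GD13 replicate 3, and Rax to 0.001 without GD13 replicate 2. Fewer arrays or another filter change the samples or probe sets tested, and beyond that the cause was not tested. Probe sets near background bound what dim genes can show.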

Other observations

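Several gene groups had no gene past the threshold between GD12 and GD13 in limma and medians close to the 0.028 of all genes. The median log2 difference was 0.069 over 52 genes of the mitochondrial respiratory chain, 0.115 over 28 of glycolysis and the hypoxia response, 0.003 over 26 heat shock and chaperonin genes and 0.008 over 17 Hox genes. Endothelial markers had a median of -0.056 over 20 genes, and their summed intensity was 2152 to 2245 on GD12 and 2086 to 2299 on GD13. In the glycolysis and hypoxia list 9 of 28 genes were higher on every GD13 array and 2 were lower on every one. Over all genes these shares were 11.1% and 8.72%. Of 23 cell cycle inhibitors 0 passed as well, but their median of 0.265 lay farther from that of all genes.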
